A study of Gallus gallus with 8 samples.

Results

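The developing sinoatrial node of the chick heart was set against the atrioventricular junction, the muscle and cushion tissue between atrium and ventricle. Both were whole libraries taken by their labels, 2 of the 8 libraries in the series, and were compared over all 17778 listed genes. The node library came from the pacemaker region of embryos whose stage the sources used here do not give, and the junction library from embryos at Hamburger-Hamilton (HH) stage 17 to 18. Each library held tissue pooled from several embryos with no treatment named in the labels. The other libraries were the left atrium and the ventricle apex, with no stage given, and 4 regions of lateral plate mesoderm at HH 8. Polyadenylated RNA was sequenced, and the gene counts came to 14047021 reads in the node and 13518277 in the junction. With 1 library a side there was no replicate, so differences carry no p-value, and region, stage and library cannot be told apart.

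The sinoatrial node starts each heartbeat: its muscle cells depolarise on their own, through the pacemaker current of HCN channels and through calcium cycling, and transcription factors such as ISL1 and TBX3 set up this state. The atrioventricular junction delays the beat between the chambers, and its muscle carries TBX2 and TBX3, which repress genes of the working chambers. Under the influence of BMP signals from that muscle, the junction also builds the endocardial cushions, a hyaluronan-rich matrix filled by mesenchyme that gives rise to the valves.

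Most genes stood at like levels in the pair of libraries. The junction was higher for genes of the cushions, among them MSX2, MSX1, ACAN, HAS2 and SOX9, and for NKX2-5, PLN and MYOZ2 of heart muscle. The node carried ISL1, HOXA3, HOXA4, NR2F2, NPPA and MYOCD at higher levels. TBX3, HCN4, BMP2, BMP4, ALDH1A2 and TCF21 differed by less than 2-fold. Levels are CPM (read counts per library, put on a common scale) after scaling between libraries, and a gene reaching 5 CPM in either library counted as expressed, which held for 9594 genes. A gene was called when the log2 ratio of CPM + 1 was at least 1 or at most -1, it was expressed, and the 95% counting interval of its ratio excluded no difference. By this rule 366 genes (3.81% of the expressed) were higher in the node and 325 (3.39%) were lower, 7.2% in all. Counts called in the gene lists below are to be set beside these shares, and many lists held few expressed members. The median log2 ratio of expressed genes was 0.01, with quartiles of -0.22 and 0.24.

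These counts depend on the scaling. Scaling by total counts alone moved the median gene by 0.21 log2 units towards the node and gave 498 higher and 226 lower genes, so that 68.8% of calls were higher in the node in place of 53.0%. Folds below are ratios of CPM with their 95% counting interval in brackets, and each is relative to the scaling. The intervals cover counting error only, and reads copied from 1 molecule by PCR make them too narrow. Fewer cells of a type and less RNA per cell cannot be told apart in such bulk tissue. In all, 125 higher and 127 lower genes differed by at least 4-fold, and 19 and 29 by at least 16-fold. The same rule called 650 to 1130 genes in the 6 pairs of heart libraries and 49 to 176 in the 6 pairs of mesoderm libraries, with 691 for node and junction.

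**Figure D1:**
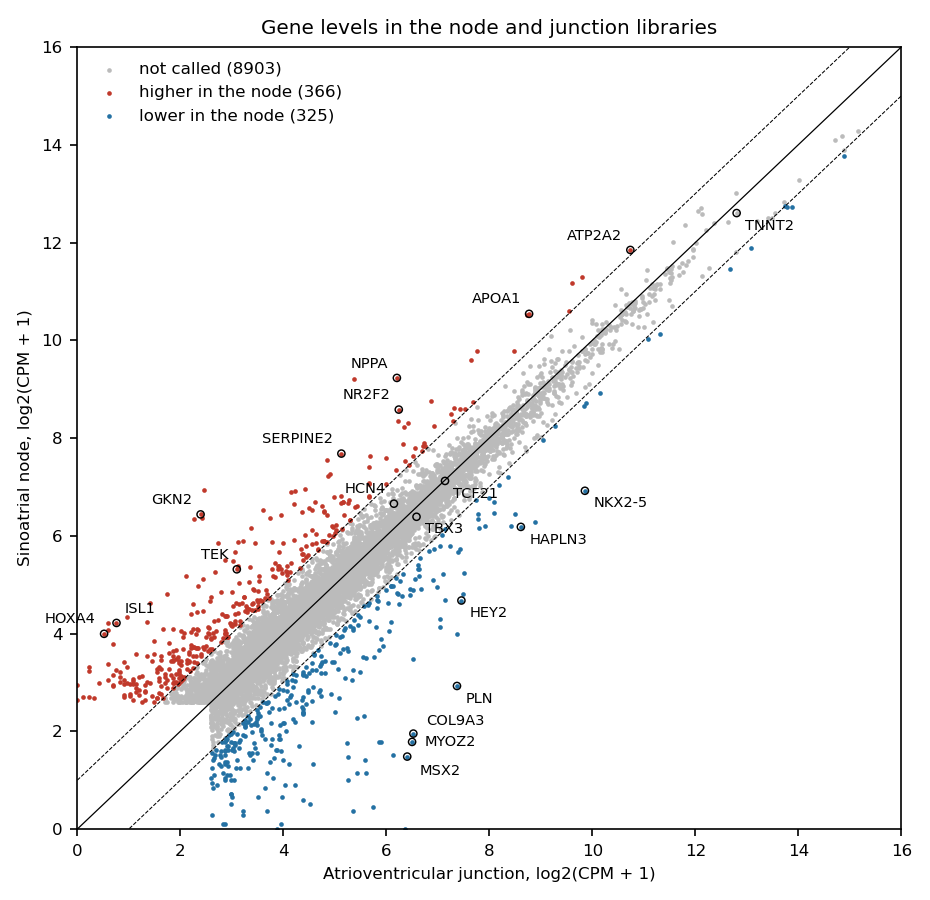
Level of each of the 9594 expressed genes in the atrioventricular junction (horizontal) and the sinoatrial node (vertical), as log2(CPM + 1), with 1 library each. The solid line marks equal levels and the dashed lines a log2 ratio of 1 either way. The 366 genes higher in the node are red and the 325 lower ones blue, while TBX3, HCN4 and TCF21 lie near the solid line.

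Pacemaker genes separated the libraries at only some points. Of 10 expressed members of the pacemaker list, 2 were higher in the node, 1 was lower and 7 were not called, with a median log2 ratio of 0.45. ISL1, a LIM homeodomain factor needed for the pacemaker programme, was at 17.6 CPM in the node (245 reads) and 0.69 in the junction (8 reads), against 0.34 in the left atrium and 0.43 at the ventricle apex. The node stood alone among the 4 heart libraries for this gene, 25.3-fold (12.7 to 59.3) above the junction. CACNA1G, a T-type calcium channel subunit active during diastolic depolarisation, was at 22.5 CPM in the node and 8.69 in the junction, 2.59-fold (2.06 to 3.28), and lower still in the atrium at 3.43 and the ventricle at 1.52.

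The main channel of the pacemaker current was present in both tissues. HCN4 was at 99.9 CPM in the node and 69.9 in the junction, a ratio of 1.43 (1.31 to 1.56) that was not called. CACNA1D, an L-type calcium channel subunit of the node, was at 28.3 and 14.9 CPM and missed the call with a ratio of 1.91 (1.59 to 2.29); scaled by total counts its log2 ratio was 1.09 and it was called. The repressor TBX3 was not called, at 82.8 CPM in the node and 95.1 in the junction; its log2 ratio of -0.20 became 0.019 with scaling by total counts, so it has no settled direction. BMP4 was at 51.0 CPM in the node and 46.6 in the junction, and BMP2, the growth factor of the canal muscle, at 62.4 and 55.6.

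The lower member of the pacemaker list was PDE1C, a calmodulin-dependent enzyme that breaks down cyclic nucleotides. It stood at 1.01 CPM in the node, 37.0 in the junction, 6.86 in the atrium and 2.82 at the ventricle apex, 36.8-fold (21.7 to 67.9) higher in the junction than in the node. The junction was the high library for PDE1C.

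Of 17 expressed cardiac transcription factors, 3 were higher in the node and 5 lower, with a median log2 ratio of -0.31. NKX2-5, a core heart factor that restrains pacemaker genes, was at 120.2 CPM in the node and 926 in the junction, 7.70-fold (7.32 to 8.12) higher in the junction. Its junction level lay between those of the atrium (1123) and the ventricle (594), so that the node was the low library. TBX2, the second T-box repressor of the canal, was at 7.26 CPM in the node and 39.1 in the junction, 5.39-fold (4.33 to 6.75), while TBX3 was not called. TBX20, a T-box factor of heart muscle and cushions, was at 72.1 and 242 CPM, 3.35-fold (3.12 to 3.61).

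PROX1, a homeobox factor of heart muscle and lymphatic endothelium, was at 2.23 CPM in the node and 6.60 in the junction. On the node side, MYOCD, a coactivator of serum response factor in cardiac and smooth muscle, was at 93.3 CPM against 21.7, 4.30-fold (3.75 to 4.94). The remaining heart libraries held MYOCD at 25.2 and 23.7 CPM, so the node was again set apart. GATA5, a zinc finger factor of the inflow and endocardium, was at 1556 CPM in the node and 752 in the junction, 2.07-fold (2.02 to 2.12). GATA4 at 157 and 109 CPM, MEF2C at 128 and 94.4, HAND2 at 298 and 369, TBX5 at 481 and 612 and GATA6 at 55.9 and 92.8 were not called.

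A further list of 19 expressed transcription factors had 1 member higher in the node, PRDM6, at 22.7 and 10.3 CPM, and 6 lower. Its median log2 ratio was -0.19 and turned positive, 0.08, with scaling by total counts. The lower ones were IRX5, MAB21L2, PRDM16, LHX9, EBF3 and MECOM. IRX5, an Iroquois factor that patterns potassium currents in mouse ventricle, was at 0.57 CPM in the node and 14.7 in the junction, 25.5-fold (12.7 to 60.1), and at 6.11 and 31.9 CPM in atrium and ventricle. MAB21L2 was at 2.23 and 18.8 CPM in node and junction, and PRDM16, a factor of compact heart muscle in the mouse, at 4.17 and 19.9. LHX9, a LIM homeobox factor, measured 4.53 CPM in the node, 20.0 in the junction, 5.56 in the atrium and 2.60 at the ventricle apex.

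Genes of the atrial and ventricular lists were called in both directions. Of the listed genes, 7 of 16 atrial and 10 of 17 ventricular ones were found. MYL7, MYH6, IRX4 and MYH7 were not matched, so these lists cannot settle chamber identity. Of 7 expressed atrial genes, 2 were higher in the node and 1 was lower (median log2 ratio -0.35). NR2F2, the nuclear receptor of atrial identity, measured 382 CPM in the node, 74.7 in the junction, 206 in the atrium and 20.5 at the ventricle apex, 5.12-fold (4.76 to 5.51) higher in the node than in the junction. NPPA, the natriuretic peptide of chamber muscle, was at 599 CPM in the node and 72.8 in the junction, 8.24-fold (7.67 to 8.85). The junction was the lowest of the 4 heart libraries for NPPA, with 197 CPM in the atrium and 1224 at the ventricle apex.

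Of 8 expressed ventricular genes, 1 was higher in the node and 4 were lower, with a median of -0.94. HEY2, a repressor of atrial genes in ventricular muscle, was at 24.6 CPM in the node and 175 in the junction, 7.12-fold (6.34 to 8.01), against 19.8 in the atrium and 292 at the ventricle apex. The node thus stood beside the atrium and the junction nearer the ventricle. MYL3, an essential myosin light chain, was at 1125 and 2558 CPM in node and junction, but with scaling by total counts its log2 ratio was -0.97 and it was not called. The atrium held MYL3 at 4008 CPM and the ventricle apex at 3504. Summed over the found ventricular genes, the atrium was likewise above the apex, at 12552 against 10535 CPM. MPPED2 was at 5.53 and 16.6 CPM. The higher member was FHL2, a LIM protein of the sarcomere, at 315 CPM in the node, 84.5 in the junction, 80.5 in the atrium and 397 at the ventricle apex.

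The genes of sarcoplasmic calcium cycling were split between the pump and its brake. ATP2A2, the pump that refills the store, was at 3686 CPM in the node and 1708 in the junction, 2.16-fold (2.12 to 2.19). PLN, the small membrane protein that inhibits this pump, was at 6.61 CPM in the node and 165 in the junction, 24.9-fold (20.2 to 31.1) higher in the junction. The ventricle held PLN at 247 CPM and the atrium at 13.3, so that node and atrium were low and junction and ventricle high. RYR2, the calcium release channel, was at 229 and 106 CPM in node and junction, and CASQ2, the calcium buffer of the store, at 109 and 49.6, a ratio of 2.20 (1.998 to 2.43). CAMK2D, a calcium-dependent kinase that acts on these proteins, was lower in the node, at 8.12 against 25.5 CPM. In all, 3 of 13 expressed calcium handling genes were higher in the node, 2 lower and 8 not called, with a median log2 ratio of 0.00.

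Sarcomere genes were called in both directions. Of 29 expressed sarcomere genes, 2 were higher (ACTA2 and FHL2), 3 lower (MYOZ2, PDLIM3 and MYL3) and 24 not called, and the median of -0.22 became 0.01 with scaling by total counts. Higher and lower calls were 6.90% and 10.3% of these genes, against 3.81% and 3.39% of all expressed genes. TNNT2, cardiac troponin T, was at 6218 CPM in the node and 7143 in the junction, and MYL2, a regulatory myosin light chain, at 5460 and 6398. TNNT2 and MYL2 were thus close, but other genes of heart muscle were not. RYR2 was called higher in the node, and NKX2-5 and MYL3 were called lower. The widest gap was that of MYOZ2, a Z-disc protein that binds calcineurin. MYOZ2 was at 2.44 CPM in the node (34 reads) and 89.6 in the junction (1031 reads), 36.7-fold (26.1 to 53.2), against 55.0 in the atrium and 39.8 at the ventricle apex. PDLIM3, another Z-disc protein, was at 1.65 and 5.21 CPM and fell under the minimum with scaling by total counts. ACTA2, the smooth muscle actin that early heart muscle also uses, was at 773 and 200 CPM, 3.87-fold (3.70 to 4.05); the actin genes are close copies and their reads may be divided wrongly.

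Of 15 expressed ion channel genes, 3 were higher in the node and 2 lower, with a median of 0.39. Beside CACNA1G and RYR2, ANO1, a calcium-activated chloride channel, was at 7.47 CPM in the node and 1.998 in the junction. KCNH7, a potassium channel of the ERG family, was at 2.01 and 14.4 CPM, 7.17-fold (4.78 to 11.1) higher in the junction. ITPR2, an intracellular calcium release channel, was at 15.7 and 35.2 CPM and was not called with scaling by total counts (log2 ratio -0.90). Gap junction genes, which set the speed of conduction, had none of 6 expressed members higher and 2 lower. GJA5, the connexin of fast atrial and ventricular conduction, was at 61.4 CPM in the node and 68.3 in the junction, both below the atrium (329) and the ventricle (571). GJA1 was at 12.1 and 20.2 CPM and was not called either. GJB6 was at 0.57 and 10.4 CPM, 18.1-fold (8.91 to 43.0), and GJA3, a lens connexin, at 1 read against 70, a ratio of 84.6 with an interval from 14.7 to 3390.

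**Figure D2:**
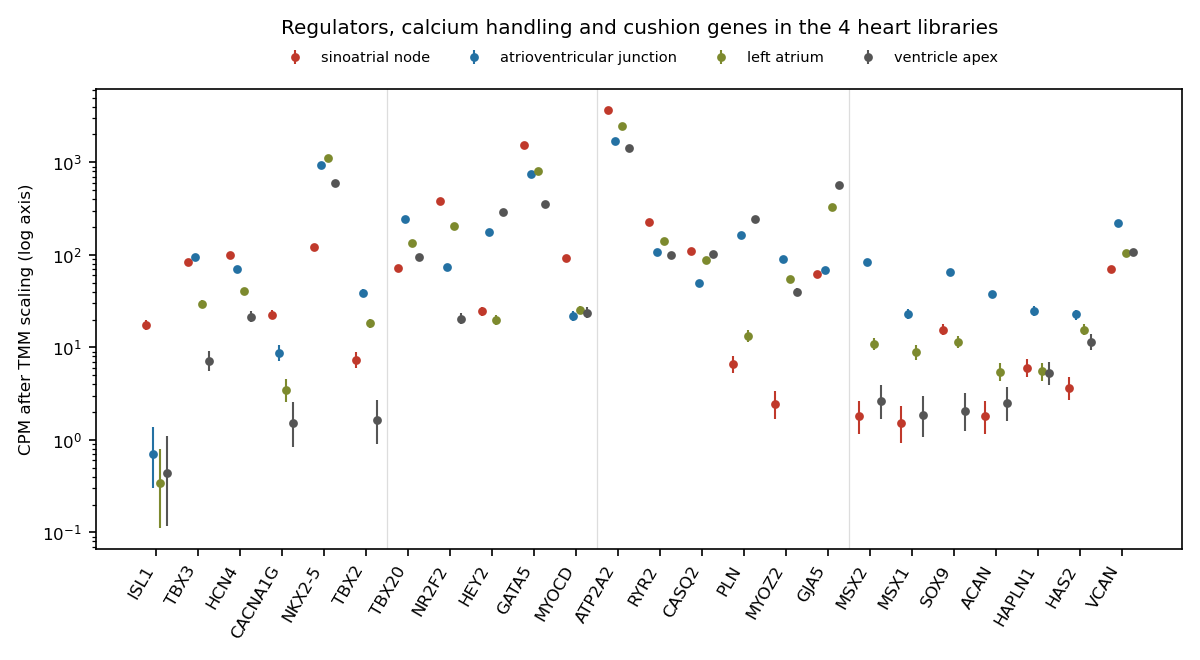
CPM after scaling, on a log axis, of regulators (left), calcium handling and conduction genes (middle) and cushion genes (right) in the 4 heart libraries, 1 library each; bars are 95% counting intervals and no bar shows where it is smaller than the point. ISL1 is high in the node alone at 17.6 CPM, PLN is low in node and atrium, and the cushion genes from MSX2 to VCAN are highest in the junction.

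Genes of the cushions were at the far end of the gene lists. Of 16 expressed members of the atrioventricular canal and cushion list, none was higher in the node, 9 were lower and 7 were not called, and 15 had a log2 ratio below 0. The median log2 ratio was -1.69, the lowest of the lists with at least 5 expressed members, and the summed level was 641 CPM in the node and 1327 in the junction. The lists were chosen with earlier results of these data known, so this rank is a description only. MSX2, a homeobox factor of cushion and canal, was at 1.80 CPM in the node (25 reads) and 83.8 in the junction (965 reads), 46.7-fold (31.4 to 72.5). The atrium held MSX2 at 10.9 CPM and the ventricle at 2.60, so the junction was the high library. The related MSX1 was at 1.51 and 23.0 CPM in node and junction, 15.3-fold (9.78 to 25.1). SOX9, a factor of cushion mesenchyme and cartilage, was at 15.6 and 65.1 CPM, 4.17-fold (3.58 to 4.88), with 11.5 in the atrium and 2.06 at the ventricle apex.

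Matrix genes known from the cushions were also lower in the node than in the junction. HAS2, the synthase of hyaluronan, was at 3.59 CPM in the node and 22.7 in the junction, 6.31-fold (4.65 to 8.72). VCAN, the large proteoglycan versican that fills the cushions, was at 70.1 and 222 CPM, 3.17-fold (2.94 to 3.41). ACAN, aggrecan, was at 1.80 and 37.4 CPM, 20.8-fold (13.9 to 32.5). HAPLN1 and HAPLN3 join such proteoglycans to hyaluronan. HAPLN1 was at 6.03 and 24.8 CPM and HAPLN3 at 71.6 and 390, 5.45-fold (5.09 to 5.84). The atrium and the ventricle apex held HAS2 at 15.6 and 11.5 CPM, VCAN at 105 and 106 and HAPLN3 at 185 and 173. For HAS2, VCAN and HAPLN3 the node was thus the low library. ACAN, at 5.42 and 2.50 CPM in the chambers, and HAPLN1, at 5.49 and 5.32, were low in the heart libraries other than the junction. In the mesoderm libraries HAPLN1 was at 104.2 to 149.9 CPM, above the junction's 24.8, while ACAN was at 0.76 to 1.20. The members that were not called included SNAI2, a factor of the mesenchymal transition, at 28.9 and 40.9 CPM, TGFB2 at 113 and 182 and NFATC1, a factor of endocardium, at 10.1 and 17.3.

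Over 58 expressed matrix genes, 10 were higher in the node and 19 lower, with a median log2 ratio of -0.43. COL9A3, a chain of collagen IX, a cartilage collagen, was at 2.87 CPM in the node and 91.1 in the junction, 31.7-fold (23.1 to 44.6), against 8.10 in the atrium and 4.01 at the ventricle apex. LOX, the enzyme that cross-links collagen and elastin, had 0 reads in the node and 158 in the junction (13.7 CPM). The junction was at least 63.7-fold higher for LOX against a floor of 3 reads, with a 95% counting interval that starts at 51.2-fold, while the atrium held 1.85 CPM and the ventricle 15.95. TNR, tenascin R, was at 1.58 and 12.3 CPM, and MATN4, a matrilin, at 1 read against 73, a ratio of 88.3 (15.4 to 3534).

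On the node side of the matrix list, MATN2, a matrilin, was at 16.02 CPM in the node and 2.61 in the junction, 6.15-fold (4.19 to 9.33). COL6A3, a chain of the beaded filaments of collagen VI, was at 50.2 and 14.2 CPM, 3.55-fold (2.99 to 4.23). ELN, elastin, was at 23.9 and 8.17 CPM, and DCN, the small proteoglycan decorin, at 38.9 and 12.8. NPNT, nephronectin, was at 40.7 and 14.2 CPM and BCAN, brevican, at 5.68 and 1.30.

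Among proteases and their inhibitors, 6 of 23 expressed members were higher in the node and 2 lower, with a median of 0.51. ADAMTS10, a secreted metalloprotease of the microfibril matrix, measured 35.1 CPM in the node, 3.30 in the junction, 12.1 in the atrium and 4.23 at the ventricle apex, 10.6-fold (7.64 to 15.2) above the junction. SERPINE2, an inhibitor of thrombin and plasminogen activators, was at 204 and 34.0 CPM in node and junction, 6.02-fold (5.41 to 6.71), and at 294 in the atrium, so the junction was the low library. MMP2, a gelatinase, was at 69.6 and 34.1 CPM. The lower members were TIMP3, an inhibitor of metalloproteases, at 36.1 and 136 CPM, 3.76-fold (3.40 to 4.17), and ADAMTS20 at 2.37 and 7.38.

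Among the Wnt genes called were secreted inhibitors, ligands, a receptor and a polarity protein. Of 26 expressed members, 5 were higher in the node and 3 lower, with a median of 0.18. SFRP1, SFRP2 and SFRP5, secreted proteins that bind Wnt ligands, were all higher in the node. SFRP1 was at 297 CPM in the node and 80.6 in the junction, 3.68-fold (3.43 to 3.96), SFRP2 at 198 and 50.1, 3.96-fold (3.62 to 4.34), and SFRP5 at 12.2 and 4.43. DKK3, a secreted protein of the Dickkopf family, went the other way, at 27.0 and 179 CPM, 6.64-fold (5.95 to 7.44). The ligands WNT11, which acts through the polarity branch in heart muscle, and WNT4 were lower in the node. WNT11 was at 5.46 and 33.0 CPM, 6.05-fold (4.72 to 7.84), and WNT4 at 1.58 and 6.34. LGR5, a receptor for R-spondins, was at 6.97 and 2.26 CPM and PRICKLE1, a polarity protein, at 63.6 and 28.7.

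The BMP and TGF-beta list had 2 of 20 expressed members higher in the node, 1 lower and 17 not called, with a median of 0.20. Higher and lower calls were 10% and 5% of these genes, against 3.81% and 3.39% of all expressed genes. The called members were secreted binding proteins. CHRDL1, a chordin-like BMP antagonist, was at 24.4 CPM in the node and 4.95 in the junction, 4.93-fold (3.72 to 6.65), with 24.6 in the atrium. NBL1, another BMP antagonist, was at 58.5 and 25.97 CPM. LTBP2, of the family that binds latent TGF-beta, was at 2.37 and 36.9 CPM, 15.6-fold (10.9 to 22.9) higher in the junction.

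Of 26 expressed genes of FGF, EGF, PDGF, VEGF and endothelin signalling, 3 were higher in the node and 2 lower, with a median of 0.02. EDN1, the precursor of endothelin, was at 6.61 CPM in the node (92 reads) and 0.61 in the junction (7 reads), 10.9-fold (5.07 to 27.8). FGF8, a growth factor of the inflow and pharynx, was at 5.60 and 1.74 CPM, and FGFRL1, a receptor without a kinase domain, at 90.4 and 26.7. NRG3, a neuregulin, was at 0.86 and 5.56 CPM and fell under the minimum with scaling by total counts, and DUSP5, a phosphatase of the ERK kinases, was at 2.80 and 8.25. In the Notch and Hedgehog list 2 of 13 expressed members were higher, HEYL at 19.5 and 6.51 CPM and BOC, a Hedgehog coreceptor, at 14.2 and 6.51, and HEY2 was the 1 lower (median 0.11).

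Retinoic acid, made in the inflow region of the early heart, is the signal of posterior identity there. Of 15 expressed genes of its pathway, 3 were higher in the node, none lower and 12 not called, with a median of 0.35. CYP26A1, which degrades retinoic acid, was at 8.98 CPM in the node and 0.96 in the junction, 9.40-fold (5.08 to 19.3). RDH10, which makes its precursor retinal, was at 10.99 and 3.47 CPM, and RARRES1, a gene named for its response to retinoic acid, at 35.4 and 12.9. CYP26A1 was lower in the chambers, at 1.78 CPM in the atrium and 0.76 at the ventricle apex. RDH10, at 19.4 and 13.7 CPM there, and RARRES1, at 48.5 and 79.0, were higher than in the node. ALDH1A2, the enzyme of the final step, was at 517 and 470 CPM and was not called; the atrium held 252 and the ventricle 169.

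A pair of HOX genes, which mark position along the body axis, was higher in the node. HOXA3 was at 17.6 CPM in the node (245 reads) and 0.52 in the junction (6 reads), 33.8-fold (15.3 to 92.9), with 1.44 in the atrium and 0.22 at the ventricle apex. HOXA4 was at 14.9 CPM (208 reads) and 0.43 (5 reads), 34.4-fold (14.5 to 107), with 0.21 and 0.22 in the chambers. These were the HOX members among 5 expressed genes of the list, whose other 3 are cofactors such as MEIS1, and the median over all 5 was -0.12 (0.10 with scaling by total counts). In the mesoderm at HH 8, HOXA3 ran from 37.0 to 49.4 CPM and HOXA4 from 3.89 to 8.24. The genes are direct neighbours on chromosome 2, HOXA3 from 32524753 to 32527430 and HOXA4 from 32543954 to 32546257 in the coordinates of the deposited tables. The sources used here give neither the build of those coordinates nor whether counting used strand.

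Guidance and adhesion genes were called on both sides, 7 of 39 expressed higher in the node and 9 lower, with a median of 0.06. FLRT3, a membrane protein that binds UNC5 receptors and FGF receptors, measured 118 CPM in the node, 16.9 in the junction, 7.41 in the atrium and 3.91 at the ventricle apex, 7.01-fold (6.04 to 8.18) above the junction. UNC5D, a receptor of that family, was at 8.91 CPM in the node and 2 reads in the junction, a ratio of 51.3 with an interval from 13.9 to 428. PLXND1, an endothelial receptor for semaphorins, was at 91.4 and 22.4 CPM, and PLXNA2 and SEMA6D, a receptor and a ligand of the same system, at 132 and 49.5 and at 48.4 and 20.0. Among the lower genes, EPHB3, an ephrin receptor, was at 54.5 and 149 CPM and CDH1, the epithelial cadherin, at 27.1 and 74.4. SEMA3B, CNTN2 and CDH7 were below 2 CPM in the node and between 9.12 and 10.3 in the junction. EPHA5, at 1.36 and 5.13 CPM, fell under the minimum with scaling by total counts.

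Secreted peptides were divided evenly, with 4 of 11 expressed members higher in the node and 4 lower, and a median log2 ratio of -0.20 (0.19 with scaling by total counts). Beside NPPA and EDN1, CHGB, a granin of secretory granules, was at 152 CPM in the node and 29.2 in the junction, 5.22-fold (4.65 to 5.87), and at 21.1 and 9.01 in atrium and ventricle. ADM, the vasodilator adrenomedullin, was at 6.82 and 1.13 CPM. PENK, the enkephalin precursor, was at 1.51 and 16.2 CPM, 10.8-fold (6.84 to 17.8) higher in the junction. CBLN1, a cerebellin of synapses, was at 1.22 and 42.0 CPM, 34.4-fold (21.2 to 59.5), with 6.04 in the atrium and 2.17 at the ventricle apex. CPE, a peptide-processing enzyme, was at 29.3 and 102 CPM, and STC2, a stanniocalcin, at 79.7 and 220.3.

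Genes of glycolysis and the response to low oxygen leaned towards the junction. Of 18 expressed members 14 had a log2 ratio below 0, with 5 called lower, 1 (ADM) higher and a median of -0.66. LDHA, a lactate dehydrogenase subunit, was at 73.1 CPM in the node and 341 in the junction, 4.67-fold (4.36 to 5.01), against 299 in the atrium and 157 at the ventricle apex. EGLN3, an oxygen-sensing prolyl hydroxylase that low oxygen induces, was at 1.01 and 7.21 CPM, 7.17-fold (4.04 to 13.7). CA9, a carbonic anhydrase, was at 49.8 and 167 CPM, ENO2, an enolase, at 1.65 and 9.64 and STC2 stood as given with the peptides. The node was the lowest of the 4 heart libraries for LDHA, EGLN3, CA9, ENO2 and STC2.

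Transcripts of the mitochondrial genome leaned the same way. All 37 genes of the mitochondrial genome were expressed, 36 had a log2 ratio below 0, 13 were called lower and none higher, with a median of -0.94. Their share of all counts was 11.4% in the node, 19.4% in the junction, 15.7% in the atrium and 11.9% in the ventricle, so the junction was the high library. With scaling by total counts 2 were called lower and the median was -0.73. Nuclear genes of the respiratory chain, 31 of them expressed, had a median of -0.09 (0.12 with scaling by total counts). None of these was called, where 7.2% of all expressed genes were, so few calls could be looked for in a list of this size. Whether RNA quality or poly(A) selection contributed to the mitochondrial share was not tested. In the muscle energy list LPL, a lipase of capillaries and muscle, was higher in the node at 33.0 and 15.98 CPM, and MB, myoglobin, at 9.70 and 29.7, and AMPD1, a deaminase of muscle, at 1.01 and 6.86, were lower, with 4 not called and a median of -0.12 (0.09 with scaling by total counts). LPL lay at the threshold of the call, with a log2 ratio of 1.0003.

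Several of the largest differences lay outside these groups. GKN2, a gastrokine known from the stomach lining, measured 85.7 CPM in the node, 4.26 in the junction, 14.0 in the atrium and 14.8 at the ventricle apex, 20.1-fold (15.1 to 27.4) above the junction. SLCO2A1, a prostaglandin transporter, was at 15.8 and 0.52 CPM, 30.3-fold (13.7 to 83.5). SCARB1, a receptor for high-density lipoprotein, was at 57.2 and 5.65 CPM, 10.1-fold (7.86 to 13.3). SCARB1 and SLCO2A1 were also low in the chambers, at 2.81 and 0.82 CPM in the atrium. OIT3 was at 90.9 and 11.1 CPM, 8.18-fold (6.82 to 9.89), SGK1, a kinase that regulates ion transport, at 120.2 and 17.7, and the cadherin CDH22 at 18.0 and 1.56. AUTS2, a nuclear regulator, was at 81.7 and 12.3 CPM, NSG1, a protein of neuronal vesicles, at 33.8 and 4.43, and WBSCR17, a glycosyltransferase, at 58.7 and 8.34.

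On the junction side, CTNNA3, the alpha-catenin of heart muscle junctions, measured 16.5 CPM in the node, 131 in the junction, 76.6 in the atrium and 104 at the ventricle apex, 7.90-fold (6.87 to 9.12) above the node. KIF26B, a kinesin family protein, was at 10.1 and 90.5 CPM, 8.94-fold (7.49 to 10.7), and HSPB7, a small heat shock protein of heart muscle, at 10.4 and 53.6. For CTNNA3 and KIF26B the node was the low library and the junction lay near the ventricle. The gap with the most reads behind a value of 0 belonged to a gene with only an identifier, ENSGALG00000022896, picked after its values were seen: 0 reads in the node and 934 in the junction, at least 376-fold against a floor of 3 reads (the interval starts at 306-fold), with 81.1 CPM in the junction, 4.39 in the atrium and 73.2 at the ventricle apex. It lies on the minus strand of chromosome 2 from 88352520 to 88366081.

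**Figure D3:**
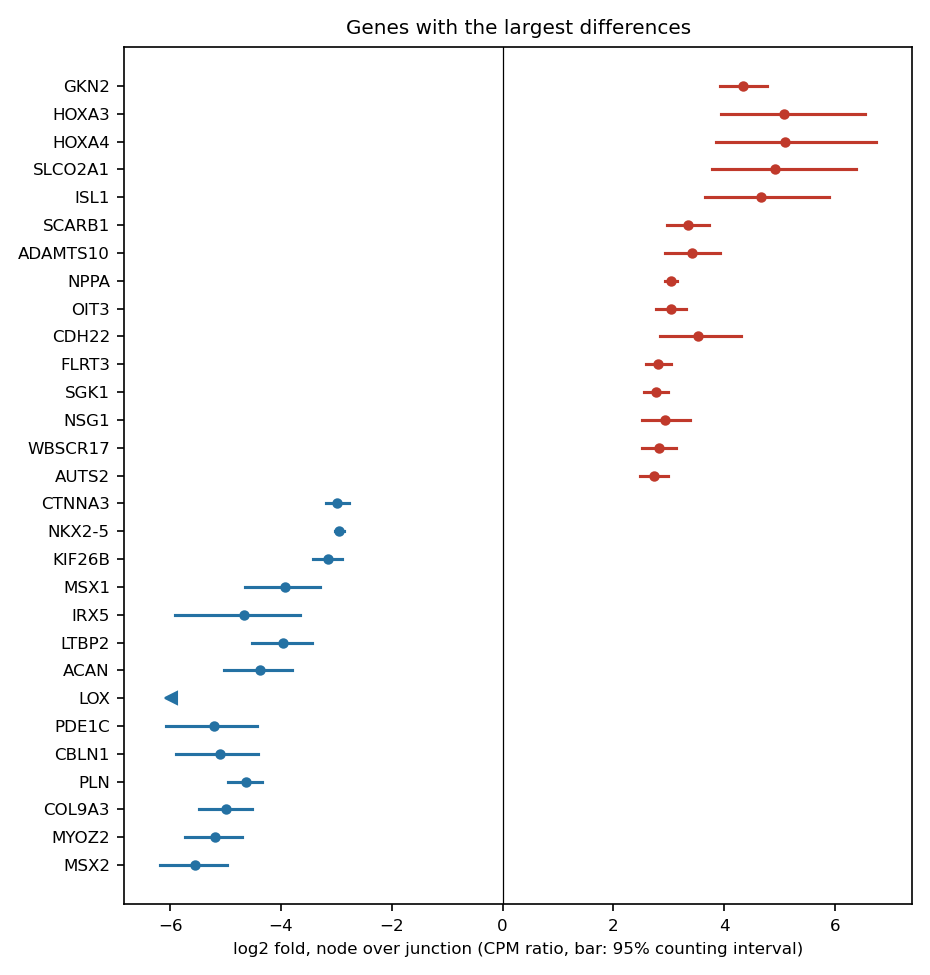
Log2 of the CPM ratio of node over junction for the named genes with the largest differences, 15 higher and 14 lower in the node, with 95% counting intervals; the arrow for LOX, with 0 reads in the node, marks the bound against a floor of 3 reads. Intervals are wide where 1 library held few reads, as for HOXA4 and IRX5, and none reaches 0.

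Markers of other cell types differed along with these genes, and their part in the results was not tested. Of 17 expressed endothelial markers, 6 were higher in the node, 1 (PROX1) lower and 14 had a ratio above 0, with a median of 0.55 and a summed level of 592 CPM in the node and 379 in the junction. That sum was 588 CPM in the atrium and 709 at the ventricle apex, so the junction was the low library. TEK, a receptor of endothelium, measured 38.8 CPM in the node, 7.56 in the junction, 29.3 in the atrium and 55.0 at the ventricle apex, 5.13-fold (4.09 to 6.51). PECAM1, an adhesion protein of endothelium, was at 20.4 and 7.73 CPM and VWF at 11.6 and 2.61, while TIE1 was at 24.8 and 24.6. These values stand beside the higher EDN1, PLXND1 and GATA5 of the node, which endothelial and endocardial cells also express. Of these, PLXND1 was also high at the ventricle apex, at 88.8 CPM, while EDN1 and GATA5 were highest in the node.

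Endoderm and liver markers were split. Of 7 expressed, 3 were higher in the node (APOA1, FGB and FGA) and 2 lower (CDH1 and PROX1), with summed levels of 1569 and 539 CPM. APOA1, an apolipoprotein, was at 1489 CPM in the node and 436 in the junction, 3.41-fold (3.31 to 3.52). FGA, a fibrinogen chain, had 93 reads in the node and 0 in the junction, at least 25.6-fold against 3 reads with an interval that starts at 20.4-fold, and FGB, a second chain, was at 10.99 and 1.82 CPM. Below the minimum, TTR was at 4.67 CPM against 0 reads. Of 16 found members, 7 had 0 reads in the junction and 1 in the node. Over all 17778 listed genes, 14805 had a read in the junction and 14961 in the node. Beside the liver proteins stand SCARB1 and OIT3, which liver also expresses, but their source was not tested. In the mesoderm at HH 8, SCARB1 was at 44.8 CPM in the pacemaker progenitor field and 5.24 to 7.12 in the other regions. OIT3 was at 4.89 to 6.29 CPM across the mesoderm regions.

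Epicardial markers were level between the libraries. Of 6 expressed, DCN alone was higher in the node and none was lower, with a median of 0.10 and summed levels of 798 and 762 CPM. TCF21 was at 138 CPM in the node and 140 in the junction, against 15.9 in the atrium and 23.3 at the ventricle apex. UPK3B, a surface protein of mesothelium, had 0 reads in the node and 2 in the junction. Erythroid markers leaned to the node over the junction, with all 8 expressed members above 0, a median of 0.45, summed levels of 25209 and 17760 CPM, and CA2, a carbonic anhydrase, the 1 called, at 95.5 and 41.3 CPM. Their sum was 47223 CPM in the atrium and 22469 at the ventricle apex, so the junction was the low library. HBBA, a beta globin, was at 6114 and 4482 CPM; the globins are near-identical to one another and their separate levels are uncertain.

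Neural crest and neural genes gave 2 higher (CHGB and NEFL) and 1 lower (PENK) of 7 expressed, with summed levels of 363 and 246 CPM and a median of -0.20 that became 0.10 with scaling by total counts. NEFL, a neurofilament protein, was at 56.5 and 15.03 CPM, while SOX10, which defines neural crest cells, was at 0.22 and 0.35. Smooth muscle and fibroblast genes had 2 of 11 expressed higher, ACTA2 and DCN, and none lower, summed levels of 1797 and 1051 CPM, with MYH11, smooth muscle myosin, at 19.1 and 20.6 CPM; the list's median was -0.02, and 0.20 with scaling by total counts. Of the macrophage and blood list 5 of 16 members were found, and LAPTM5 alone was expressed, at 5.39 and 4.43 CPM. The markers PTPRC, CSF1R and SPI1 were not matched by name, so the list cannot show how far such cells were present. None of 15 expressed proliferation genes was called, against 7.2% of all expressed genes. Their median was -0.01 (0.21 with scaling by total counts), and CDK1, the mitotic kinase, was at 425 and 427 CPM. Of 18 expressed immediate early and stress genes 1 was called, HSPB7. HSPB7 made up 5.56% of that list's expressed members, against 3.39% called lower over all expressed genes.

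**Figure D4:**
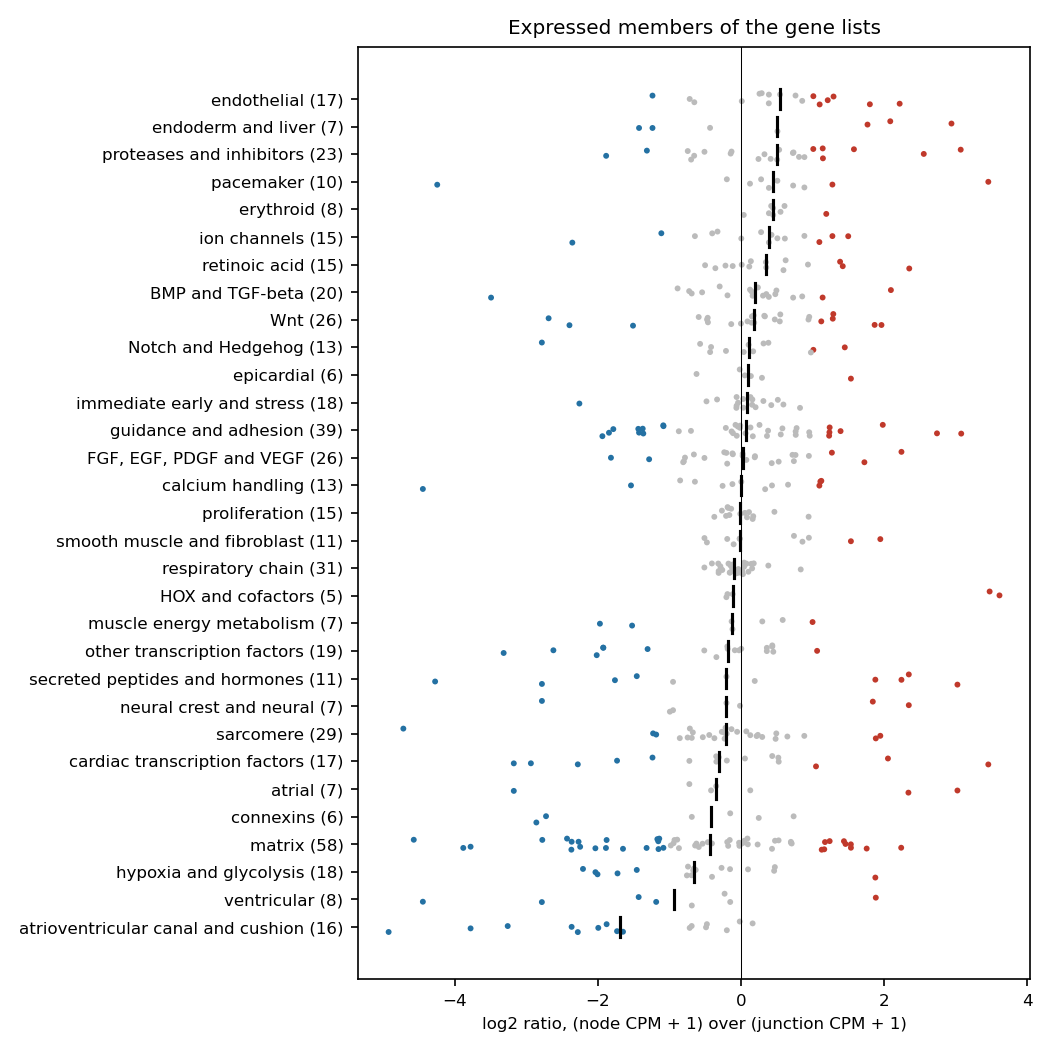
Log2 ratio of each expressed member of the gene lists, as (node CPM + 1) over (junction CPM + 1), 1 library each. Red points were called higher in the node, blue ones lower and grey ones neither; the black bar is the list's median and the number of expressed members stands in brackets. The cushion list lies lowest, with a median of -1.69, and the endothelial list highest at 0.55, among lists chosen with earlier results of these data known.

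The called genes were chosen for their gap between node and junction, so their levels in the chambers are given as a description only. The median CPM of the 366 higher genes was 19.8 in the node, 5.95 in the junction, 9.95 in the atrium and 8.68 at the ventricle apex. For the 325 lower genes the medians were 4.96, 19.9, 10.6 and 12.6 CPM. At HH 8, the mesoderm libraries held some genes of either side: MSX1 at 90.3 to 127 CPM, above the junction's 23.0, and APOA1 at 619 to 796 CPM, between junction and node. ISL1 was at 4.38 to 14.7 CPM in the mesoderm, while GKN2 was at 0.17 CPM or less there.

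The called genes were spread over the genome, with some direct neighbours among them. SKAP2, HOXA3 and HOXA4 formed a run of 3 genes higher in the node on chromosome 2, from 32248070 to 32546257. FGB and FGA stood with 1 further gene on chromosome 4, from 21391939 to 21421384, and ANTXR1 and GKN2 with 2 further genes on chromosome 22, from 153669 to 315601. On chromosome 22, 10 of 91 expressed genes (10.99%) were higher in the node and none lower, against 3.81% and 3.39% over all expressed genes; SFRP1 stands in a second run there. Reads of overlapping neighbours cannot be told apart where counting ignores strand. The median genomic span was 17.7 kb for higher and 18.5 kb for lower genes, and 13.1 kb for expressed genes that were not called.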

How the data were processed

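Per the labels' protocols, RNA of pooled chick embryo tissue gave paired reads of 36 bases each; the submitters' processing notes name Bowtie and TopHat. The build, the annotation, how reads were counted and whether strand was used are not given in the sources used here. Per the file headers, the deposited tables hold read counts and CPM, which the authors made by scaling counts to each library's total. Count columns were matched to libraries by header; for the posterior mesoderm, reads were rebuilt from the deposited CPM, 100% of them whole within 0.01. Every per-sample column was used except a second copy of the posterior mesoderm CPM.

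Counts were scaled with TMM factors over all 8 libraries (edgeR 4.0.16, R 4.3.3), 0.991 for the node and 0.852 for the junction, where 1 read was worth 0.0718 and 0.0869 CPM. Ratios used a pseudocount of 1 CPM, and intervals were exact (Clopper-Pearson). Where a library had 0 reads, the fold was taken against 3 reads. The calling was tested on simulated data. Gene names were matched to a RefSeq table (GRCg7b, for names and neighbours only); 8579 genes carried a symbol. The 33 lists held 1252 genes, of which 694 were found. Among the genes not matched, and so not analysed here, were SHOX2, TBX18, GJC1, GJD2, NPPB, WT1, CDH5 and KDR. MYL7, MYH6, IRX4, MYH7, PTPRC, CSF1R and SPI1 were not matched either. Members and lists were chosen with earlier results of these data known. Named were the 15 largest differences each way among genes with a symbol at 10 CPM or more, up to 6 called members of each list each way (with fewer than 2 called, the 2 at the highest level) and a fixed set of heart genes; a few further list members, cell type markers and neighbouring genes were added after their values were seen. Results of some genes are not reported here. Alternatives were other scalings, pseudocounts, minimum levels, fold thresholds and a 99% interval.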

Additional observations from a re-analysis of the deposited data

How the results depend on the processing

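With 1 library a side no replicate could be left out. No paired analysis was possible because each group holds 1 library. Over 13 alternative settings the counts of 366 higher and 325 lower genes moved by more than 1.5 times with the fold threshold alone: a 1.5-fold threshold gave 840 and 733, a 3-fold threshold 151 and 145. The 161 named genes, 28 of them not called, were recomputed under 7 of these, the scalings and pseudocounts. In 1090 gene results a called gene stayed called or an uncalled gene stayed uncalled. Calls were lost in 34 results and gained in 3. Calls near the threshold included LPL, MMP2 and BOC, higher in the node with log2 ratios of 1.0003, 1.01 and 1.01. No called gene changed sign, while 8 of 28 genes that were not called did so with scaling by total counts, among them TBX3, GJA5, TCF21 and TNNT2. Named genes were not recomputed under the other minimums, fold thresholds and interval. List medians changed sign with scaling by total counts for neural crest (0.10), smooth muscle (0.20), sarcomere (0.0093), HOX (0.10), secreted peptides (0.185), proliferation (0.21), respiratory chain (0.125), muscle energy (0.0878) and the further transcription factors (0.0769); with a minimum of 1 CPM for smooth muscle (0.36) and HOX (0.52); with a minimum of 10 CPM for muscle energy (0.0897); and with no minimum for the left-right list (0.14) and the further transcription factors (0.0735). The cause was not tested, beyond that total scaling shifts every ratio and a lower minimum admits more members. Depth limits what a low value shows: 3 reads were 0.216 CPM in the node and 0.261 in the junction.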
